A study of Sus scrofa with 4 samples.

Results

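Cells answer misfolded protein with separate transcriptional programmes for the endoplasmic reticulum, the cytosol and the mitochondria, and 40 genes of these programmes are described here in pig ovary, out of 22309 genes in the expression table. The 40 were a fixed list of unfolded protein response and heat shock genes. It held 25 endoplasmic reticulum stress genes, 12 cytosolic heat shock genes and 3 mitochondrial chaperone genes. A row of the table was found for each: 37 carried the gene's symbol, and ERN1, DNAJB11 and SDF2L1 were found through their gene identifiers. The samples were whole ovaries or parts of them (the labels say only ovary), all in diestrus, the luteal stage of the estrous cycle. The 2 control samples had the genotype WT. The other 2 came from sows with leptin overexpression, leptin being the adipocyte hormone that reports fat stores to the brain. These sows were F2 offspring of crosses that began with re-cloned males of the leptin overexpressed pig C013 and Duroc/Landrace/Yorkshire sows, so they trace back to 1 cloned line. The promoter of the transgene and the ages of the sows are not given in the sources used here. The labels do not state whether each sample is a different animal, and p-values then reflect the spread of these 4 samples alone, part of which may be technical.

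When unfolded protein accumulates in the lumen of the endoplasmic reticulum, the chaperone HSPA5 (also called BiP) lets go of the membrane sensors ERN1 (IRE1), EIF2AK3 (PERK) and ATF6. ERN1 splices XBP1 messenger RNA, EIF2AK3 slows translation and raises the factor ATF4, and ATF6 is cut to a transcription factor, and the 3 arms raise chaperones, degradation machinery and, under lasting stress, pro-apoptotic genes. In the cytosol the transcription factor HSF1 raises the Hsp70, Hsp90, J protein and small heat shock genes. The corpus luteum of the diestrous ovary is a steroid-secreting gland rich in smooth endoplasmic reticulum and mitochondria, and both programmes have been studied there for their part in luteal growth and regression.

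Total expected counts ran from 16493113 to 16797511 per library. LEP, the overexpressed gene, had 0 counts in WT replicate 1, 3 in WT replicate 2, 55 in leptin overexpression replicate 1 and 124 in replicate 2, and values below keep this order of libraries. The luteal genes STAR and CYP11A1 stood at 7022 and 3822 CPM or more in each library, which matches the tissue label. CPM is a gene's count scaled to a fixed library total, here after TMM, a method that sets libraries to a common level over most genes. The libraries did not separate cleanly by genotype: across 13937 genes, Pearson's r was 0.941 between WT replicate 2 and leptin overexpression replicate 1 and 0.917 between the WT libraries (genes are not independent of each other). WT replicate 1 also held oocyte markers at a summed 141 CPM, against 21.3 to 23.7 CPM in the other libraries.

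The genotype comparison asked which of these genes differ between ovaries of sows with leptin overexpression and WT ovaries. None of the 39 members that could be tested passed the threshold of an adjusted p of 0.05 (edgeR's quasi-likelihood test, Benjamini-Hochberg adjustment over all 13937 tested genes, of which 0.0287% were called). DESeq2 called none of the members either, against 2.19% of all tested genes. At an unadjusted p under 0.05 the edgeR test held 2 members, TRIB3 and HSPE1, both higher in leptin overexpression. Of all tested genes, 9.36% had such a p, 4.04% higher and 5.32% lower. Log2 fold changes, leptin overexpression minus WT, ran from -0.76 for HSPB8 to 1.80 for TRIB3, and edgeR adjusted p-values from 0.489 to 0.99. Of the 39, 29 had a log2 fold change above 0, or 74.4%, against 49.3% of all tested genes. In TMM-scaled CPM, both leptin overexpression libraries lay above both WT libraries for 11 members (28.2%, against 22.2% of all genes). They lay below both for 2 (5.13%, against 22.9%). In FPKM, of the 11 only HSP90B1, TRIB3, DNAJA1, HSPD1 and HSPE1 were still higher without overlap. HSPB8, CRYAB, ATF4, ERN1, HERPUD1, EDEM1, SEL1L, PDIA4, DNAJB1 and HSF1 were then lower in both leptin overexpression libraries. The share of all tested genes without overlap in FPKM was not computed, so whether these numbers of members are unusual cannot be told. The count above 0 was 24 to 33 with 1 library left out, and it was 15 when the authors' FPKM values were compared in place of the counts. That comparison moved the median of all genes to -0.30, and log2 fold changes below are on the TMM scale unless another is named. In bulk tissue, fewer cells of a type and less RNA per cell cannot be told apart, for every value here.

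**Figure D1:**
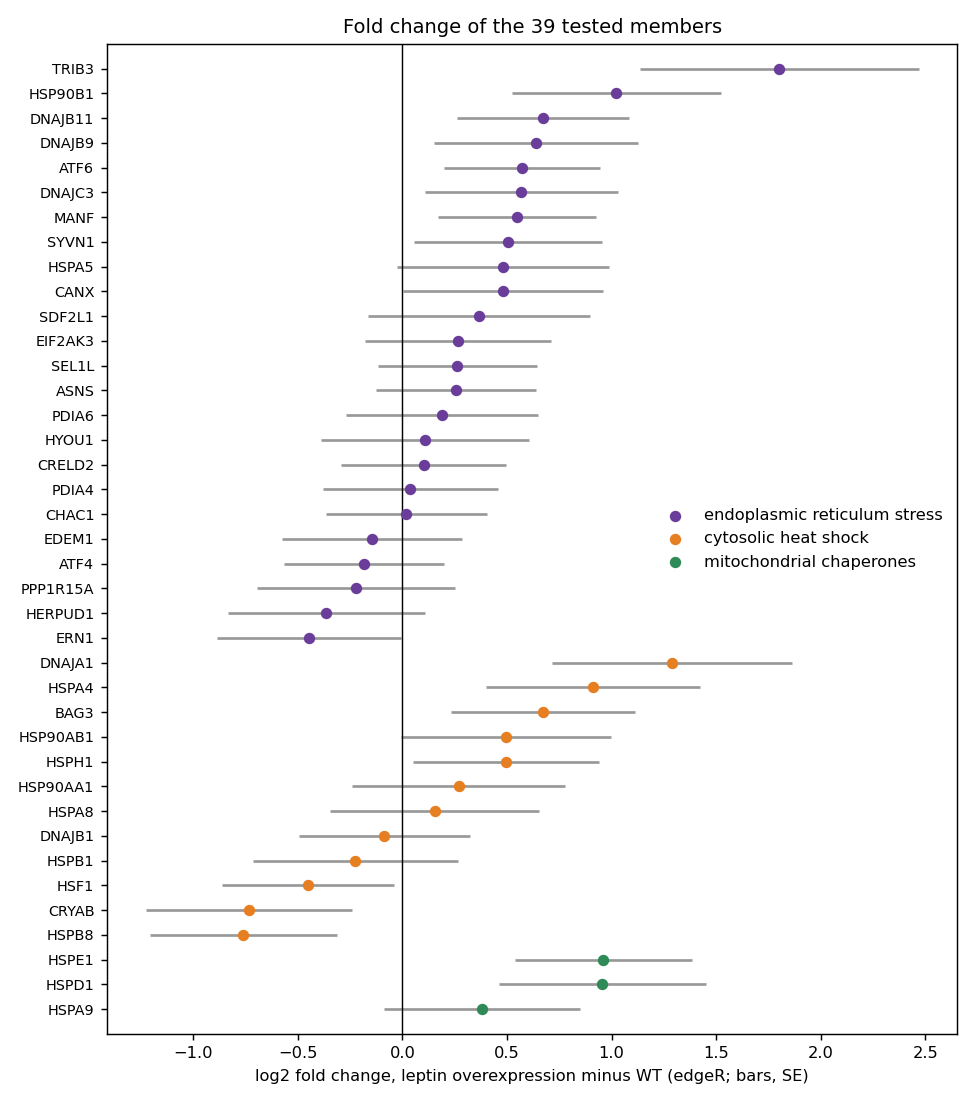
Log2 fold change (leptin overexpression minus WT, x axis) of the 39 tested members, ordered within endoplasmic reticulum stress genes (purple), cytosolic heat shock genes (orange) and mitochondrial chaperones (green); points are edgeR estimates and bars are standard errors, with 2 libraries per genotype. TRIB3 at 1.80 is the highest and HSPB8 at -0.76 the lowest, and no member passed the adjusted threshold.

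The median log2 fold change was 0.26 over the 24 tested endoplasmic reticulum members, 0.21 over the 12 cytosolic heat shock members and 0.96 over the 3 mitochondrial chaperones, against -0.012 over all tested genes. The endoplasmic reticulum and heat shock medians thus differed by 0.053. On the FPKM scale, log2(FPKM + 1), the medians were -0.082, -0.23 and 0.53, and relative to the all-gene median on that scale they were 0.22, 0.069 and 0.83. Between libraries of 1 genotype, the groups' median centred levels had a standard deviation of 0.25, 0.30 and 0.31 on the log2 scale. The ratio of the higher to the lower library was 1.42 in WT and 1.52 in leptin overexpression at the median over members, against 1.34 and 1.46 over all tested genes.

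Per transcript length, the members covered a wide range of levels. HSPA8, the constitutive cytosolic Hsp70 that folds newly made and damaged proteins, had the highest mean, with 981, 666, 603 and 733 FPKM and ranks of 73 to 109 among all genes of each library. It was followed by the Hsp40 DNAJA1, the mitochondrial co-chaperonin HSPE1 and the cytosolic Hsp90 HSP90AB1, with means over the 4 libraries of 559, 516 and 470.3 FPKM. HSPA5, the main lumenal Hsp70, led the endoplasmic reticulum members with 297, 383, 328 and 398 FPKM. At the other end were the sensor EIF2AK3 with a mean of 5.71 FPKM, the lumenal cofactor SDF2L1 with 5.16, and DDIT3 with 0.518. The order of the leading members differed between libraries: in leptin overexpression replicate 2, DNAJA1 at 966 FPKM stood above HSPA8.

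**Figure D2:**
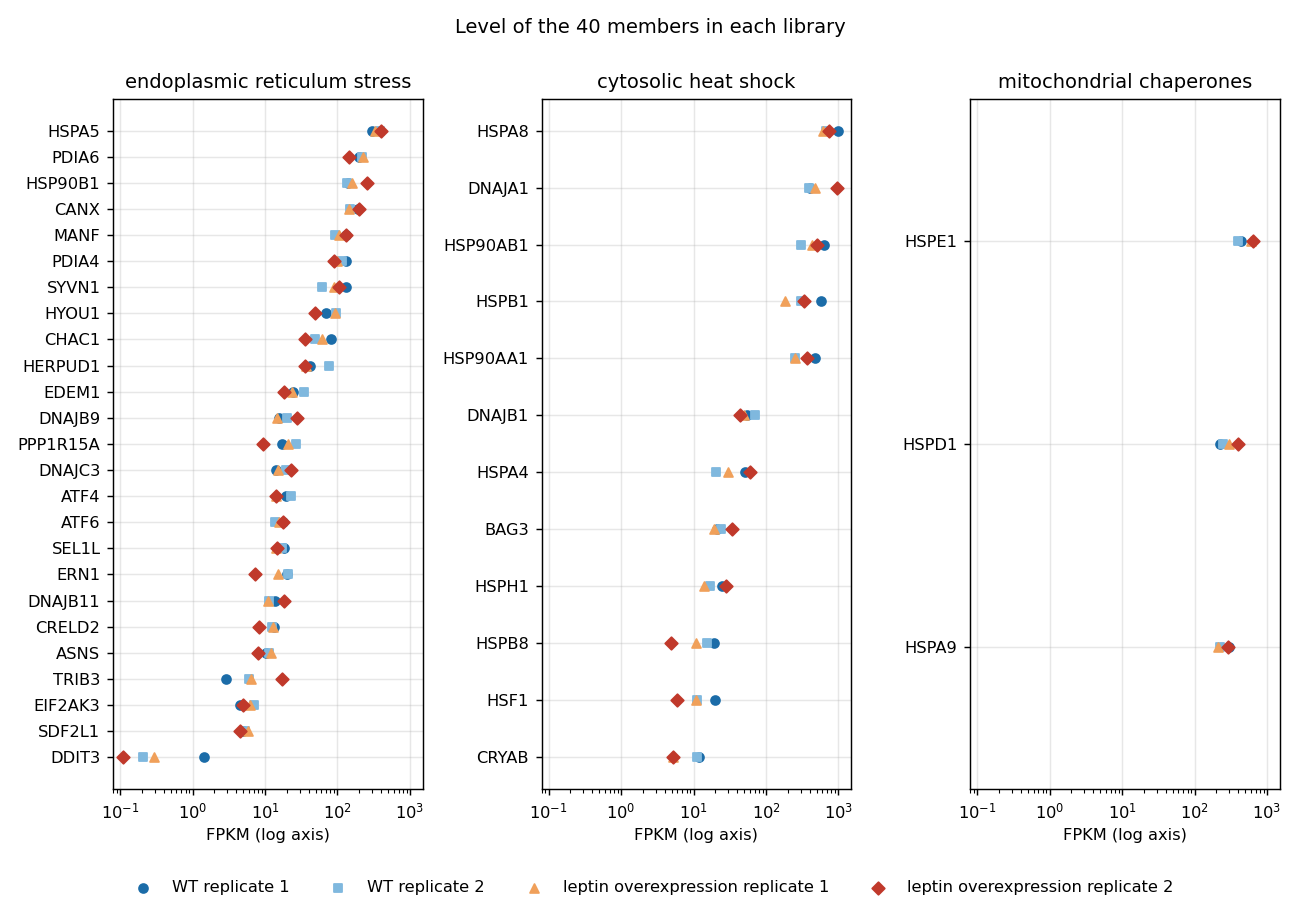
Deposited FPKM (log axis) of the 40 members in each of the 4 libraries, 1 row per gene, for the endoplasmic reticulum, cytosolic and mitochondrial groups; circles and squares are WT replicates 1 and 2, triangles and diamonds leptin overexpression replicates 1 and 2. The members span from 0.11 FPKM for DDIT3 to 981 FPKM for HSPA8, and for most genes the symbols of the 2 genotypes interleave.

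Among the 3 stress sensors, ATF6 (ENSSSCG00000006346), the Golgi-activated arm, had 90.5 and 99.5 CPM in WT and 123 and 159 CPM in leptin overexpression. The groups did not overlap, at a log2 fold change of 0.57 (SE 0.37, edgeR adjusted p = 0.617). EIF2AK3, the kinase that phosphorylates eIF2alpha, had 15.3, 32.9, 30.3 and 27.6 CPM, so WT replicate 1 alone was low and the groups overlapped. Without that library its log2 fold change was -0.20, in place of 0.27. ERN1 (ENSSSCG00000039909), the kinase and ribonuclease, had 56.9, 106, 74.8 and 44.9 CPM, with leptin overexpression replicate 2 the lowest. The table describes this row as ERN1 but gives it the symbol of ICAM2, an endothelial adhesion molecule whose gene is the next one along in RefSeq's Sscrofa11.1 gene order, so the value may hold reads of both. Summed over 8 endothelial markers, CPM was 747, 1353, 919 and 444, the same order of libraries as the ERN1 row; 7 of the 8 had a log2 fold change below 0 and none was at 0 counts. The part of endothelial RNA in the ERN1 row was not tested.

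All 9 lumenal chaperones and folding enzymes had a log2 fold change above 0 under TMM scaling, against 49.3% of all genes. Their median was 0.37. Under upper-quartile scaling 8 of 9 were above 0, and on the FPKM scale 3 of 9, where the median of all tested genes was -0.30. None passed the threshold. HSP90B1 (ENSSSCG00000000849, also GRP94), the Hsp90 of the endoplasmic reticulum, had the widest difference, with 371 and 474 CPM in WT and 602 and 1115 CPM in leptin overexpression. That is 422 ± 72.5 against 858 ± 363 (SD, n = 2 each), or 1.02 on the log2 scale (SE 0.50, 95% interval -0.11 to 2.16, edgeR adjusted p = 0.564). The groups did not overlap, and leptin overexpression replicate 2 stood far above replicate 1; without it the log2 fold change was 0.51.

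HSPA5 (ENSSSCG00000005601) itself overlapped between the genotypes, with 566 and 981 CPM in WT and 904 and 1256 CPM in leptin overexpression (0.48 on the log2 scale, SE 0.51, edgeR adjusted p = 0.753). Its FPKM ratio to HSP90B1, which does not depend on how libraries are scaled, was 2.10, 2.85, 2.07 and 1.55, so the balance of the main lumenal chaperones was lowest in leptin overexpression replicate 2. CANX, the membrane lectin that holds glycoproteins for folding, had 593, 629, 646 and 1057 CPM: the first 3 libraries were nearly level and the fourth was high. In FPKM it had 192, 150, 143 and 200, with overlap. MANF, a secreted stress factor, had 87.6, 82.5, 102 and 147 CPM, also without overlap (0.55 on the log2 scale, SE 0.38). Its FPKM values of 130, 91.6, 105 and 132 overlapped between the genotypes.

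The remaining lumenal members had log2 fold changes of 0.037 to 0.37. PDIA4 and PDIA6 are disulfide isomerases. PDIA4 stood at 342, 396, 375 and 382 CPM, a log2 fold change of 0.037 with a 95% interval of -0.91 to 0.99, and PDIA6 at 368, 546, 592 and 451 CPM. HYOU1, a large Hsp70 that exchanges nucleotide on HSPA5, had 238, 445, 461 and 275 CPM, so its high libraries were 1 of each genotype. CRELD2 showed the same shape at a lower level (16.3, 20.3, 22.4 and 16.9 CPM). For PDIA4, PDIA6, HYOU1 and CRELD2, the log2 fold change was below 0 without WT replicate 1, between -0.068 for CRELD2 and -0.29 for HYOU1. SDF2L1, a low-level partner of the J proteins, had 4.13 and 5.61 CPM in WT and 6.79 and 5.75 CPM in leptin overexpression.

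The 3 J proteins of the endoplasmic reticulum, which deliver clients to HSPA5 and stimulate its ATPase, had log2 fold changes of 0.57 to 0.67, above 0 under every scaling tried. DNAJB11 (ENSSSCG00000011798) had 50.4 and 55.9 CPM in WT and 57.6 and 112 CPM in leptin overexpression, without overlap (0.67 on the log2 scale, SE 0.41, edgeR adjusted p = 0.607). DNAJC3, which also inhibits EIF2AK3, had 66.1, 122, 101 and 178 CPM. DNAJB9, a target of spliced XBP1 that restrains ERN1, had 14.6, 25.8, 20.0 and 42.8 CPM. Leptin overexpression replicate 2 was the highest library for all 3, and without it DNAJB11, DNAJC3 and DNAJB9 had log2 fold changes of 0.12, 0.099 and -0.010.

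The 4 members of the degradation machinery split evenly around 0. SYVN1, the ubiquitin ligase at the core of the retrotranslocation complex, had 306, 190.4, 296 and 407 CPM (0.50 on the log2 scale), and its adaptor SEL1L had 86.7, 121, 113 and 137 CPM (0.26). HERPUD1, which recruits the ligase complex, had 79.2, 191, 99.2 and 111 CPM (-0.36), and EDEM1, which trims mannose from terminally misfolded glycoproteins, had 106, 201, 149 and 129 CPM (-0.15). For these last 2, WT replicate 2 was the highest library. Without it both log2 fold changes were above 0, at 0.37 and 0.35. SYVN1 and EDEM1 were among 10 members with a deposited count that was not whole, the others being ATF6, ERN1, PDIA6, DDIT3, HSPA8, HSP90AB1, CRYAB and HSF1.

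The ATF4 arm had no common direction. ATF4 itself, which is controlled mainly at translation, had 79.2, 123, 83.6 and 94.4 CPM, and its level did not separate the groups. Below it, TRIB3 (ENSSSCG00000039862), a pseudokinase that ATF4 and DDIT3 induce and that inhibits AKT signalling, had the largest log2 fold change of the 39 members. It had 6.81 and 18.9 CPM in WT and 21.8 and 67.5 CPM in leptin overexpression, or 12.8 ± 8.52 against 44.7 ± 32.3 (SD, n = 2 each). The groups did not overlap, but WT replicate 2 and leptin overexpression replicate 1 were close. The log2 fold change was 1.80 (SE 0.67, 95% interval 0.25 to 3.35), with an unadjusted p of 0.028 and an edgeR adjusted p of 0.489. TRIB3 passed the threshold in no fit that kept every library. Leaving out WT replicate 2 raised its log2 fold change to 2.67, with WT replicate 1 then the only WT library. The log2 fold change was 1.21 without WT replicate 1, 2.40 without leptin overexpression replicate 1 and 0.77 without leptin overexpression replicate 2.

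The other tested members of that arm lay nearer to 0. ASNS, asparagine synthetase, had 28.5, 42.6, 48.4 and 36.5 CPM, and CHAC1, which degrades glutathione, had 93.4, 75, 103 and 67.7 CPM; their log2 fold changes were 0.26 and 0.019. PPP1R15A, the phosphatase subunit that ends the translational block, had 29.9, 61.3, 51.1 and 27.0 CPM, with 1 high library in each genotype. DDIT3 (ENSSSCG00000044553, CHOP), the pro-apoptotic factor, was too low to test: it had 45, 7, 9 and 3 counts, or 2.04, 0.418, 0.588 and 0.224 CPM, and was removed by the filter on low counts. The last of these equals 3 counts in its library, the limit that a count of 0 allows. Fitted without the filter, DDIT3 had a log2 fold change of -1.56 (SE 1.33, edgeR adjusted p = 0.714). DDIT3 was thus highest in WT replicate 1, the library in which TRIB3 was lowest.

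Turning to the cytosolic programme, HSF1 (ENSSSCG00000005917), the master transcription factor, had 30.0, 22.7, 23.8 and 14.8 CPM. The log2 fold change was -0.45 (SE 0.41, edgeR adjusted p = 0.711), and was below 0 under every alternative. HSF1 is regulated chiefly by trimer formation and phosphorylation, which these data do not measure.

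The Hsp70 and Hsp110 members were above 0 under TMM scaling without reaching the threshold. HSPA8 had 1688 and 1537 CPM in WT and 1501 and 2086 CPM in leptin overexpression, a log2 fold change of 0.15 with a 95% interval of -0.98 to 1.28. HSPA4 (ENSSSCG00000014292), an Hsp110-type nucleotide exchange factor, had 139, 74.1, 124 and 276 CPM (0.91, SE 0.51, edgeR adjusted p = 0.592). The table describes that row as ZCCHC10, the gene next to HSPA4 in RefSeq's order, so its reads may belong to either. HSPH1, the other Hsp110, had 61.3, 54.7, 49.6 and 114 CPM, so only leptin overexpression replicate 2 stood out. Without that library the log2 fold changes of HSPA8 and HSPH1 were -0.10 and -0.23.

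In TMM-scaled CPM, both cytosolic Hsp90 genes were lowest in WT replicate 2 and highest in leptin overexpression replicate 2. HSP90AA1, the stress-inducible form, had 1145, 810.4, 882 and 1474 CPM, and HSP90AB1, the constitutive form, had 1165, 748, 1146 and 1551 CPM. In FPKM both were instead highest in WT replicate 1, with 475, 251, 253 and 370 for HSP90AA1 and 636, 304, 430 and 511 for HSP90AB1. Their FPKM ratio, HSP90AA1 over HSP90AB1, was 0.747, 0.825, 0.589 and 0.723, so the constitutive form was the higher per length in every library.

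DNAJA1 (ENSSSCG00000011000), a J protein that hands clients to cytosolic Hsp70, had the largest difference of the heat shock members and the third lowest unadjusted p of all members, 0.0516. It had 689 and 915 CPM in WT and 1172 and 2748 CPM in leptin overexpression, or 802 ± 159.7 against 1960.3 ± 1114 (SD, n = 2 each). The groups did not overlap, and the log2 fold change was 1.29 (SE 0.57, 95% interval -0.01 to 2.59, edgeR adjusted p = 0.534). Its FPKM ratio to HSPA8, which no scaling alters, was 0.409, 0.596, 0.782 and 1.32, higher in both leptin overexpression libraries than in either WT library. No test of that ratio was made. DNAJB1, the J protein most used as a readout of HSF1 activity, lay near 0: it had 92.9, 162, 119 and 120.4 CPM (-0.086 on the log2 scale, SE 0.41). The FPKM ratio of DNAJA1 to DNAJB1 was 7.23, 5.55, 9.63 and 22.3. BAG3, a co-chaperone that directs Hsp70 clients to autophagy, had 42.0, 62.2, 54.7 and 111 CPM, with leptin overexpression replicate 2 the highest. Without that library, the log2 fold changes of DNAJA1, HSPA4 and BAG3 were 0.55, 0.22 and 0.071.

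All 3 small heat shock proteins, ATP-independent holdases, had log2 fold changes below 0, under each scaling tried. HSPB8, a partner of BAG3, had 23.1 and 24.7 CPM in WT and 18.8 and 9.41 CPM in leptin overexpression, without overlap (-0.76, SE 0.45, edgeR adjusted p = 0.600). CRYAB, alpha-B crystallin, had 7.39 and 9.61 CPM in WT and 4.77 and 5.45 CPM in leptin overexpression, also without overlap (-0.73, SE 0.49, edgeR adjusted p = 0.627). HSPB1, by far the highest of the 3, overlapped, with 381, 268, 181 and 375 CPM, and its log2 fold change was above 0 without WT replicate 1 (0.026) or without leptin overexpression replicate 1 (0.21). HSPB8 and CRYAB are abundant in muscle, and most markers of smooth muscle and pericytes also had log2 fold changes below 0. The 10 markers summed to 1698 and 1855 CPM in WT and to 1193 and 1626 CPM in leptin overexpression, and none was at 0 counts. Of the 10, 7 were below 0, among them MYH11 with 421, 231, 69.9 and 107 CPM. SYNPO2, CALD1 and RGS5 were above 0, at 0.19, 0.54 and 0.26. The sum and CRYAB were lowest in leptin overexpression replicate 1, while HSPB8 was lowest in replicate 2. Markers of oviduct and surface epithelium lay lower still, with 8 of 9 matched genes below 0. They summed to 546 and 284 CPM in WT and to 6.46 and 68.6 CPM in leptin overexpression. EPCAM, the 1 marker above 0, made up 57.1 of the 68.6 CPM in leptin overexpression replicate 2. FOXJ1, SPAG6 and KRT18 were at 0 counts in leptin overexpression replicate 1, and TEKT1 in replicate 2. The part of these cell types in the small heat shock values was not tested.

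The 3 mitochondrial chaperones were higher in both leptin overexpression libraries than in either WT library, each without overlap in CPM, as were 22.2% of all tested genes. HSPE1 (ENSSSCG00000016078), the lid of the mitochondrial chaperonin, had 206 and 239 CPM in WT and 385 and 482 CPM in leptin overexpression, or 223 ± 23.0 against 433 ± 68.1 (SD, n = 2 each). Its log2 fold change was 0.96 (SE 0.42), with an unadjusted p of 0.0497 and an edgeR adjusted p of 0.533. HSPD1 (ENSSSCG00000016077), the chaperonin barrel, had 439.7, 643, 826 and 1275 CPM (0.96, SE 0.50, edgeR adjusted p = 0.572). These genes lie side by side in RefSeq's order and are known to share a bidirectional promoter. The FPKM ratio of HSPD1 to HSPE1 was 0.516, 0.627, 0.501 and 0.630 and did not separate the genotypes. HSPA9, the mitochondrial Hsp70 that pulls in imported proteins, differed less, with 609.7, 624, 632 and 974 CPM, and on the FPKM scale its log2 fold change was -0.071. HSPD1 and HSPE1 remained above 0 under every alternative, and the median of the 3 was 0.61 without leptin overexpression replicate 2.

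Across libraries, the endoplasmic reticulum and heat shock members differed in shape rather than in their genotype medians. To compare the groups, the log2 CPM of each gene was centred on its mean over the 4 libraries and the group's median was taken. The endoplasmic reticulum median was -0.39, 0.11, 0.050 and 0.091, so on this TMM scale WT replicate 1 was low and the other 3 were level. The low value depends on the scaling: the summed FPKM of the endoplasmic reticulum members was 1614, 1605, 1523 and 1639, with WT replicate 1 second highest. In TMM-scaled CPM, WT replicate 1 was the lowest library for 19 of the 24 endoplasmic reticulum members, or 79.2%, against 28.3% of all tested genes. The heat shock median was 0.041, -0.12, -0.16 and 0.43, with leptin overexpression replicate 2 high; that library was the highest for 7 of 12 heat shock members, or 58.3%, and for 11 of 24 endoplasmic reticulum members, or 45.8%, against 35.7% of all genes. It was the lowest library for 5 of the 39 members (12.8%), against 34.2% of all genes. The mitochondrial median was -0.58, -0.20, 0.16 and 0.64.

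Subtracting the heat shock median from the endoplasmic reticulum median gave -0.43 and 0.23 for the WT libraries, then 0.20 and -0.34 for those of leptin overexpression, so the balance of the programmes crossed the genotypes. WT replicate 1 and leptin overexpression replicate 2 were tilted to heat shock genes, and the other libraries to endoplasmic reticulum genes. The same was visible in unscaled shares of the library: heat shock members took 0.730%, 0.468%, 0.488% and 0.718% of counts, while endoplasmic reticulum members took 0.494%, 0.503%, 0.470% and 0.513%. The difference of the genotype medians depended on which library was left out: it was -0.23 without WT replicate 1 and -0.26 without leptin overexpression replicate 1, and 0.37 without WT replicate 2 or without leptin overexpression replicate 2.

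**Figure D3:**
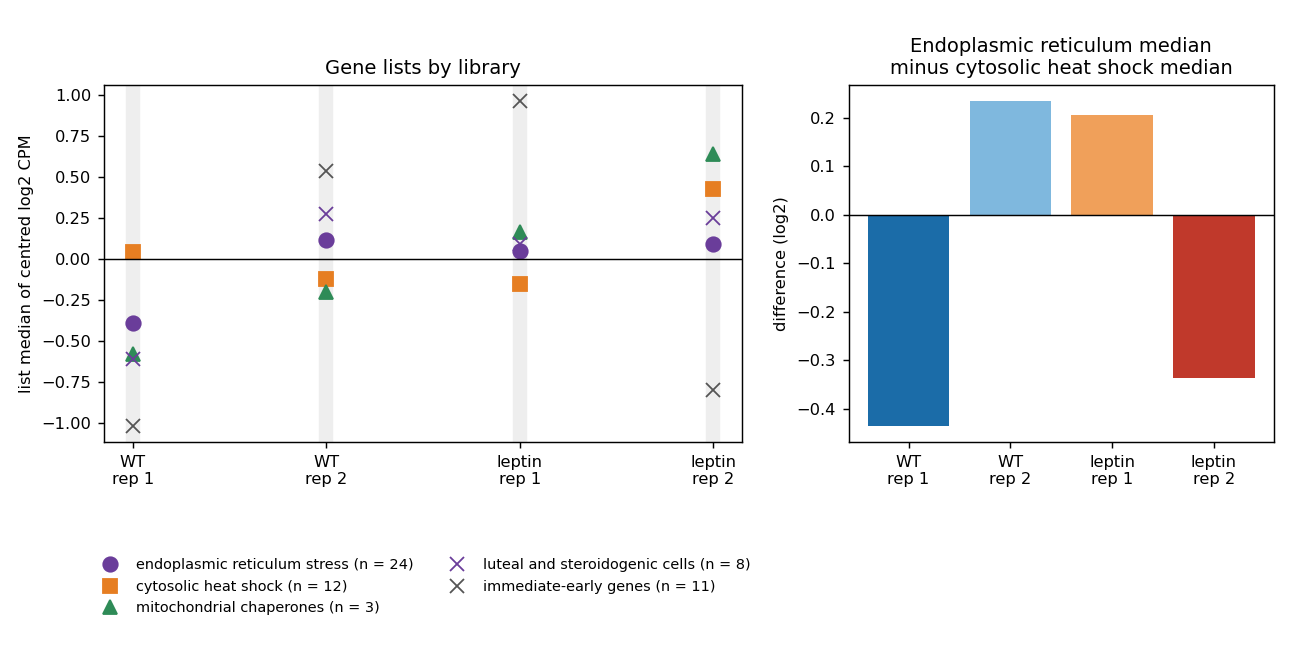
Left, median of log2 CPM in each library, each gene centred on its mean over the 4 libraries, for the endoplasmic reticulum (circles), heat shock (squares) and mitochondrial (triangles) members and for luteal and immediate-early genes (crosses). Right, the endoplasmic reticulum median minus the heat shock median: WT replicate 1 (-0.43) and leptin overexpression replicate 2 (-0.34) are below 0, the other libraries above.

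Among other signals, the sum of immediate-early genes moved with this pattern, while luteal markers and mitochondrially encoded genes did not. Immediate-early genes such as FOS and EGR1, which respond within minutes to handling of tissue, summed over 11 genes to 354, 1096, 2146 and 404 CPM, low in the libraries that were tilted to heat shock genes. The 8 luteal and steroidogenic markers summed to 20667 CPM in WT replicate 1 and to 44478, 41962 and 46230 CPM in the other libraries, and none was at 0 counts. Thus WT replicate 1, low in endoplasmic reticulum members on the same TMM scale but not in FPKM or share of counts, was also low in this sum. FDX1, LHCGR and INSL3 were not lowest in that library, and the other luteal markers were. The parts of handling and of luteal cell content in the members' values were not tested. Mitochondrially encoded genes held 6.89%, 12.9%, 15.1% and 16.4% of the library's counts, and TMM factors were 1.34, 0.998, 0.925 and 0.809. In that same order of libraries the CPM of 9 members went up step by step: HSP90B1, ATF6, DNAJB11, CANX, TRIB3, DNAJA1 and the 3 mitochondrial chaperones. Of all tested genes, 11.0% went up in that order and 10.5% went down, and of the members none went down. Without the mitochondrially encoded genes in the fit, no member changed sign and none passed the threshold. That fit left the scaling almost as it was: the members' median log2 fold change was 0.2692, in place of 0.2687. It therefore cannot show the part of the mitochondrially encoded share in the members' values, which was not tested.

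Directions against WT depended on scaling for many members. Of the 39, 25 had the same sign under TMM, RLE and upper-quartile factors and on both FPKM scales, and 14 had a log2 fold change above 0 in counts but below 0 in FPKM. The latter were CANX, PDIA4, PDIA6, HYOU1, SDF2L1, CRELD2, SEL1L, EIF2AK3, ASNS, CHAC1, HSPA8, HSPH1, HSP90AA1 and HSPA9. With the replicate left-out fits, voom, DESeq2, the block and the filters added, 17 members kept their sign throughout. Of these 14 were above 0, namely HSPA5, HSP90B1, ATF6, the J proteins DNAJC3 and DNAJB11, SYVN1, MANF, TRIB3, HSPA4, HSP90AB1, DNAJA1, BAG3, HSPD1 and HSPE1, and 3 were below: HSPB8, CRYAB and HSF1.

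Genes that work beside the members were read from the same fit in 7 further lists, and none of their genes passed the threshold by edgeR, while DESeq2 called ERO1B (adjusted p = 0.00222) and MTHFD2 (adjusted p = 0.0246), where it called 2.19% of all tested genes. On the log2(FPKM + 1) scale, genes above 0 numbered 15 of 20 for the other endoplasmic reticulum chaperones and 0 of 10 for the other sensors. They numbered 5 of 16 for degradation, 9 of 25 for the integrated stress response and 10 of 28 for cytosolic chaperones. For TRiC and prefoldin they were 6 of 13, and for the mitochondrial list 3 of 9. The median of all tested genes was itself -0.30 on that scale. In the same order of lists, 16, 5, 10, 13, 17, 12 and 6 genes lay above that median. Of these lists, the other endoplasmic reticulum chaperones and folding enzymes had the highest median, 0.75 over 20 genes. That median was 0.33 on the FPKM scale, 0.48 without WT replicate 1 and 0.39 without leptin overexpression replicate 2. Of the 20, 18 (90%) were above 0, against 49.3% of all genes, and 15 (75%) were higher without overlap, against 22.2%. At an unadjusted p under 0.05, 4 were higher, as were 4.04% of all genes. ERO1B, an oxidase that recharges disulfide isomerases, had 11.8 and 104 CPM in WT and 255 and 939 CPM in leptin overexpression (3.37 on the log2 scale, SE 1.15, edgeR adjusted p = 0.477), which is a wider range than that of any member. The cargo receptor LMAN1 and the Hsp70 HSPA13 had log2 fold changes of 1.21 and 1.34. The 2 highest genes of the list per length, the disulfide isomerase PDIA3 and the lectin chaperone CALR, had 0.81 and 0.21.

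Of the other degradation genes, 13 of 16 were above 0, 9 (56.2%) were higher without overlap, against 22.2% of all genes, and 2 were higher at an unadjusted p under 0.05, as were 4.04% of all genes. The median was 0.34, and -0.078 on the FPKM scale. SELENOS, a membrane selenoprotein of the retrotranslocation complex, had 30.0, 53.3, 68.4 and 156 CPM (1.43), and the lectin ERLEC1 had 70.0, 143, 157 and 356 CPM (1.27). VCP, the segregase that extracts clients from the membrane, had a log2 fold change of 0.19 (SE 0.45). The other sensors and factors of the unfolded protein response stayed near 0: 6 of 10 were above 0, with a median of 0.15 and none at an unadjusted p under 0.05. TXNIP, which is itself neither a sensor nor a transcription factor, and NFE2L1 were the highest of this list per length and had 0.043 and 0.26. XBP1, named here after its values were seen because ERN1 splices it, had 314, 329, 382 and 406 CPM (0.29, SE 0.41); gene counts do not tell its spliced form from the unspliced one.

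The integrated stress response genes outside the members had 13 of 25 (52%) above 0, against 49.3% of all tested genes, and a median of 0.10. At an unadjusted p under 0.05 were 2 genes, both higher. Of all tested genes, 4.04% were higher at such a p, and 9.36% had it in either direction. MTHFD2, a mitochondrial folate enzyme that ATF4 induces, had 41.2 and 50.5 CPM in WT and 104 and 162 CPM in leptin overexpression (1.53, SE 0.40, edgeR adjusted p = 0.266), the lowest adjusted p of these lists. GADD45A, a growth arrest gene, had 27.6, 78.4, 131 and 159 CPM (1.45). CEBPB and VLDLR, the highest per length, had -0.20 and 0.47. ATF4 targets thus differed among themselves, TRIB3 and MTHFD2 lying above ASNS and CHAC1, and these differences between genes were not tested.

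In the cytosol, 17 of 28 other chaperone genes (60.7%) were above 0, against 49.3% of all tested genes. Their median was 0.22, and -0.030 without leptin overexpression replicate 2. At an unadjusted p under 0.05, 1 gene was higher, as were 4.04% of all tested genes. FKBP5, an Hsp90 co-chaperone that glucocorticoid and progesterone receptors induce, had 83.4, 74.8, 119 and 316 CPM (1.46, SE 0.51, edgeR adjusted p = 0.422). ST13, which links Hsp70 to Hsp90, had 0.74, and SERPINH1, a collagen chaperone that sits in the endoplasmic reticulum although HSF1 controls it, had -0.17. The inducible Hsp70 genes HSPA1A and HSPA1B matched no row by symbol and were not analysed here. All 13 tested subunits of the chaperonin TRiC and of prefoldin were above 0 on the TMM scale, against 49.3% of all tested genes. The list's median was 0.39. Of the 13, 4 (30.8%) were higher without overlap, against 22.2% of all genes, and none was at an unadjusted p under 0.05. Their median was 0.15 without WT replicate 2 and 0.087, with 9 of 13 above 0, without leptin overexpression replicate 2. The other mitochondrial chaperones and proteases had 7 of 9 (77.8%) above 0, against 49.3% of all tested genes, and a median of 0.34. The 1 gene higher at an unadjusted p under 0.05, as were 4.04% of all tested genes, was CLPX. CLPX, the unfoldase of the matrix protease, had 0.99 (SE 0.43, edgeR adjusted p = 0.529), while the proteases LONP1 and SPG7 had -0.11 and 0.51.

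**Figure D4:**
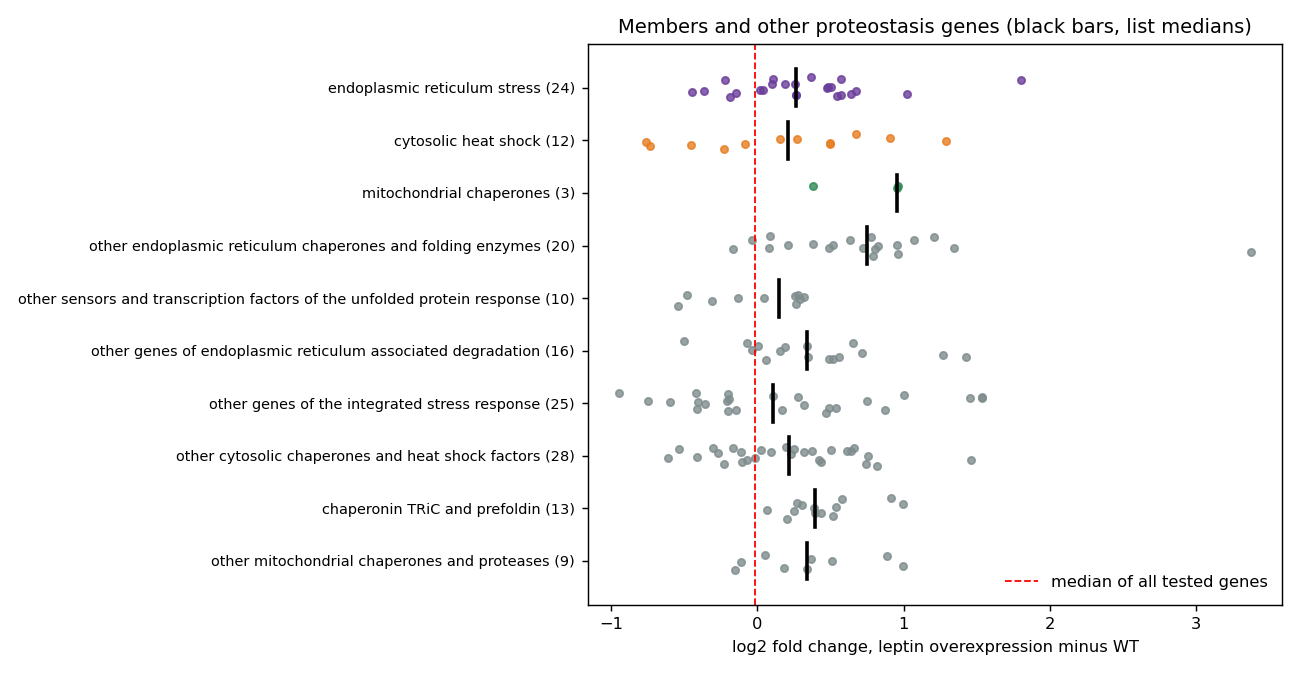
Log2 fold change (leptin overexpression minus WT, x axis) of each tested gene in the 3 groups of members (coloured) and in 7 further lists (grey), with the number tested in brackets; black bars are list medians and the dashed line is the median of all tested genes. Medians run from 0.10 for the integrated stress response to 0.96 for the mitochondrial members, and ERO1B at 3.37 is the farthest point.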

How the data were processed

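Ovaries of pig (Sus scrofa) gave 4 libraries of poly(A) RNA, sequenced by Illumina, per the labels' protocols. The deposited table gives expected counts per gene, which are estimated rather than tallied and carry no depth scaling, per the file headers. Of these, 13.8% were not whole, and all were rounded here. The deposited FPKM values are the authors' counts scaled to transcript length and library size, per the file headers. In the submitters' processing notes, tools are listed without roles: HISAT2, RSEM, DESeq2, edgeR 3.32.0, StringTie 1.3.1, fastp 0.18.0 and Bowtie2 2.2.8. The genome build and whether strand was used are not given in the sources used here. No coordinates are printed, and reads of overlapping genes cannot be assigned with certainty. Control columns were taken as the equally numbered WT samples.

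Genes were filtered with filterByExpr (13937 kept, 8372 removed), scaled with TMM factors and compared by the quasi-likelihood test of edgeR 4.0.16 (R 4.3.3, limma 3.58.1) with genotype as the only term and 2 residual degrees of freedom; p-values were Benjamini-Hochberg adjusted over all tested genes, threshold 0.05. Every edgeR adjusted p in the text is from that fit unless another setting is named. The SE is approximate, the size of the log2 fold change over the root of F. Centred values use log2 CPM with a prior count of 2. Limits set by 3 counts cover counting error only, at 0.136 to 0.224 CPM. The fit was tested on simulated counts.

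The 40 members, the further lists and the markers were chosen with earlier results of these data known. Every member was named. From each further list, genes past the threshold were named, otherwise up to 3 with the lowest p under 0.05, and up to 2 with the highest mean FPKM; 1 gene that this rule selects is not reported here. Other settings tried were upper-quartile or RLE factors, DESeq2 1.42.0, voom, limma-trend on log2(FPKM + 1) and on log2(FPKM + 0.1), the unfiltered table, a stricter filter (1 CPM in 2 samples), the replicate number as a block, each library left out, and, added after the data were seen, a fit without mitochondrially encoded genes. Overlap between genotypes means overlap of CPM over the 2 libraries each.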

Additional observations from a re-analysis of the deposited data

How the results depend on the processing

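The members' main limit is 2 libraries per genotype, with a median SE of 0.46 per member on the log2 scale. The number of members past the threshold was 0 in all alternatives except 1, TRIB3, without WT replicate 2 (range 0 to 1). Over all genes the number past the threshold was 4, and 11 with upper-quartile factors, 252 with no filter, 305 with DESeq2, 1 with limma-voom, 464 and 487 on the FPKM scales with pseudocounts of 1 and 0.1, and 0 to 603 with 1 library left out (603 without WT replicate 2). Members at an unadjusted p under 0.05 numbered 2, and 1 with the 1 CPM filter, 5 with DESeq2, 4 on both FPKM scales, and 0 to 7 with 1 library left out (7 without leptin overexpression replicate 1, 0 without leptin overexpression replicate 2). For all tested genes, the share at such a p was computed in the main fit alone, at 9.36%. Whether the member counts in the other settings are unusual therefore cannot be told. On the FPKM scales, the median log2 fold change was -0.082 and -0.090 for endoplasmic reticulum members, -0.23 and -0.23 for heat shock members, and 0.53 and 0.53 for mitochondrial chaperones, with the all-gene median at -0.30 and -0.40. With 1 library left out, these medians ran from 0.069 to 0.48, from -0.13 (without leptin overexpression replicate 2) to 0.48, and from 0.61 to 1.11. The cause of these shifts was not tested. A group left with 1 library was assumed to vary like the other group.

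With the replicate number as a block, 23 genes and 0 members passed the threshold, and 1 member was at an unadjusted p under 0.05. Deviations of same-numbered samples correlated at -0.0995, and the numbers were not taken to pair the samples. The block changed the sign of 1 member, CHAC1.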

Other observations

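The deposited annotation placed 163 genes in the KEGG pathway for protein processing in the endoplasmic reticulum, which holds 25 of the 40 members. With the members left out, 123 of its genes were tested. Of these, 84 (68.3%) had a log2 fold change above 0, against 49.3% of all tested genes. In CPM, 55 (44.7%) were higher in both leptin overexpression libraries than in either WT library, against 22.2% of all tested genes. In both, 15 (12.2%) were lower, against 22.9%. These values are on the TMM scale, and directions on the FPKM scale were not counted for this set. None passed the threshold by edgeR, 10 were higher at an unadjusted p under 0.05, as were 4.04% of all tested genes, and DESeq2 called 2, ERO1B and the oligosaccharyltransferase subunit TUSC3, against 2.19% of all tested genes. Centred log2 CPM had a median of -0.20, -0.087, 0.029 and 0.22 in WT replicates 1 and 2 and leptin overexpression replicates 1 and 2. That order is the order of the mitochondrially encoded share given above, and its part in these values was not tested.

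TRIB3 and DDIT3 diverged between libraries. The FPKM ratio of TRIB3 to DDIT3 was 1.97 in WT replicate 1, 28.3 in WT replicate 2, 22.0 in leptin overexpression replicate 1 and 156 in leptin overexpression replicate 2, where DDIT3 had 3 counts.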
